A study of Mus musculus with 54 samples.

Results

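The 6 genes of active calcium reabsorption in the distal nephron, Calb1, S100g, Trpv5, Slc8a1, Atp2b1 and Vdr, were followed through every segment and every protocol of a mouse kidney series. They were chosen by name for their known part in calcium transport, with earlier results of these data known. They are 6 of the 33126 genes that the deposited tables list. The series held 54 libraries in 18 groups of 3. Of these, 39 were 10x Chromium libraries of cells or nuclei and 15 were bulk RNA-seq libraries. AFAPIL.1DEL C57BL/6J males of 19 weeks, all of 1 litter, gave cells dissociated warm (at body temperature with a commercial enzyme kit) or cold (on ice with a cold-active protease). Each was profiled fresh, after 6 weeks of cryopreservation or after 3 months in methanol, and both fresh suspensions also gave bulk libraries. Untreated Balb/c males of 18 weeks gave fresh cold-dissociated cells, nuclei of flash-frozen kidney sorted after 3 spins at 500g, and bulk libraries of intact kidney. Untreated wild type Balb/c females of 15 weeks, former breeders, gave fresh and cryopreserved (2 weeks) cold-dissociated cells. They also gave nuclei isolated in 3 ways from flash-frozen kidney, and bulk libraries of intact kidney and of the cold suspension. Nuclei were sorted after 3 spins at 500g (3x500g) or after 1 spin at 2000g (1x2000g), or were cleaned over a sucrose gradient. The 3 experiments were separated in time and differed in the age of the mice. The C57BL/6J and Balb/c males, which differ in strain, shared the 10x chemistry (version 2) and ribosomal RNA depletion for bulk libraries. The Balb/c females had version 3 and poly(A) capture, so sex, age and method cannot be told apart between them and the Balb/c males.

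In the late distal convoluted tubule and the connecting tubule calcium crosses the cell. It enters through the apical channel Trpv5, is buffered and carried by the calbindins Calb1 and S100g, and leaves across the basolateral membrane through the sodium-calcium exchanger Slc8a1 and the plasma membrane calcium pump Atp2b1. The vitamin D receptor Vdr is the nuclear receptor through which calcitriol raises the transcription of several of these genes. Parathyroid hormone acts on the same cells. Trpv5 and the calbindins are textbook markers of these segments, whereas Atp2b1 is used by most cells and Vdr is also made in the proximal tubule.

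The genes differ widely in size, which bears on what reads from introns can add to them. On GRCm38 (GENCODE annotation) S100g lies at chrX:162961992-162964599 on the minus strand and spans 2.61 kb, of which 18.4% is exon. Slc8a1 lies at chr17:81373105-81738377 on the minus strand and spans 365 kb, of which 5.15% is exon. Calb1 (chr4:15881264-15908064, plus strand) spans 26.8 kb and Trpv5 (chr6:41652173-41680769, minus strand) 28.6 kb. Vdr (chr15:97854425-97910630, minus strand) spans 56.2 kb and Atp2b1 (chr10:98914406-99026143, plus strand) 112 kb. The 250 bases before the RefSeq start of S100g (GRCm38.p6, chrX:162964600-162964849, minus strand) are shown because S100g was called in the distal classes after several kinds of storage. Vdr, itself one of the 6 genes, binds pairs of hexamers of the kind that capitals mark here, AGGTCA and GGTTCA on either strand.
S100g promoter: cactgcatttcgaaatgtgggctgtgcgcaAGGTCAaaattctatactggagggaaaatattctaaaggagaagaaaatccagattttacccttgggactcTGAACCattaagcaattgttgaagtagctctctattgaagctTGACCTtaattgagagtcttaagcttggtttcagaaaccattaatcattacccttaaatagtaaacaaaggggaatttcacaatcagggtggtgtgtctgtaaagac
AGGTCA was found 220 bases before the start on the strand of the gene and 107 bases before it on the opposite strand. GGTTCA was found 149 bases before it on the opposite strand, with no overlap between the matches. Of 32851 RefSeq promoters of this length, 14.0% hold AGGTCA and 8.85% hold GGTTCA on either strand. The TATA letters TATAAA were found in the Trpv5 promoter, 43 bases before the start on the strand of the gene, and in 12.4% of all promoters. None of these 3 motifs was found in the promoters listed for Slc8a1, Atp2b1 and Vdr. A match is a description of the letters only. Whether Vdr binds at these hexamers, or bears on the storage calls of S100g, was not tested.

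The 10x libraries held 983522 to 35170948 UMIs (unique molecular identifiers, counted molecules) each, lowest in C57BL/6J warm methanol and highest in female nuclei. The bulk libraries held 2326998 to 31093450 counts. Levels are given as CPM, counts scaled to 1000000 in the library or, within a cell class, UMIs scaled to 1000000 in that class. Barcodes were clustered with the 6 genes and 26 other calcium pathway genes left out and were named from marker lists that hold none of the 6. The distal convoluted tubule (Slc12a3, Pvalb, Trpm6) and the connecting tubule (Klk1, Scnn1a, Scnn1b, Scnn1g) were thus set apart without them. The connecting tubule was thin in C57BL/6J cryopreserved libraries (18 barcodes cold and 10 warm in all), so no test was run on it there. Within a sequencing set, the 210 library pairs shared 0 to 101 cell barcodes, at most 1.78% of the smaller library. Barcodes marked as doublets were kept. The study states a filter of at least 10 cells per gene, but up to 12.1% of the genes with counts in a library of cells lay in fewer barcodes. A gene outside the filter can be listed at 0 or not at all. A listed 0 in cells may thus stand for UMIs in fewer than 10 cells, and no upper limit is drawn from it. Nuclei and male cells list 0 mitochondrial genes and the other cells 13, which held 13.6% to 34.9% of their UMIs and lower their CPM. A test here is edgeR's quasi-likelihood test over all genes, called at a Benjamini-Hochberg adjusted p under 0.05. The 3 libraries of a group came from kidneys of 3 mice. The log2 fold changes of edgeR follow TMM scaling and lay below the log2 ratio of the mean CPM (over genes that all libraries of a comparison list) in several comparisons. Over libraries the median gap over the members was 0.40 in cold and 0.43 in warm cryopreserved C57BL/6J, 0.36 in cryopreserved female and 0.18 and 0.43 in male and female nuclei. Within classes it was 0.49 in the distal convoluted and 0.27 in the connecting tubule of warm methanol, 0.28 and 0.19 in those of cold methanol and 0.33 and 0.61 in those of female nuclei. All 89 calls made without a block on genes with counts on both sides had the same sign on both scales, but some values that were not called turned.

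Of the 6 genes, 5 had their highest class mean in the distal convoluted or connecting tubule in female fresh cells, and the same 5 in female 3x500g nuclei. Atp2b1 did not. These levels describe clusters and carry no test. Calb1 reached 5087 ± 384 CPM (SD, n = 3) in the distal convoluted tubule and 4618 ± 1251 in the connecting tubule of fresh cells, a difference within the spread. It was 1445 ± 104 in principal cells and 27.2 ± 3.92 in the proximal tubule. S100g was 22632 ± 1002 CPM in the connecting tubule, 7528 ± 792 in the distal convoluted tubule, 4978 ± 1192 in principal cells and 1214 ± 532 in intercalated cells. The connecting tubule libraries thus stood above all others for S100g but not for Calb1. Trpv5, the entry channel, had 38.9 ± 1.91 CPM in the connecting tubule, 12.7 ± 4.76 in the distal convoluted tubule and 3.92 ± 4.48 in principal cells. Slc8a1 was 232 ± 78.4 CPM in the connecting tubule and 151 ± 42.8 in the distal convoluted tubule, which overlap, and mural cells came next at 60.2 ± 12.2. Slc8a1 is also the exchanger of heart and smooth muscle. Vdr was 316 ± 87.7 CPM in the connecting tubule and 231 ± 32.7 in the distal convoluted tubule, again overlapping. It was 84 ± 12.7 in intercalated cells and 82.2 ± 3.17 in the proximal tubule, which do not differ beyond their spread. Among the classes not named here Calb1 was at most 211 ± 248 CPM, in monocytes or neutrophils (2 libraries). S100g was at most 433 ± 364, in macrophages, and Slc8a1 at most 19.4 ± 3.71, in principal cells. Atp2b1 was spread over all classes. It ran from 287 ± 130.4 CPM in monocytes or neutrophils and 223 ± 22.5 in mural cells to 68.9 ± 11.6 and 48.5 ± 7.10 in the distal convoluted and connecting tubule.

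**Figure D1:**
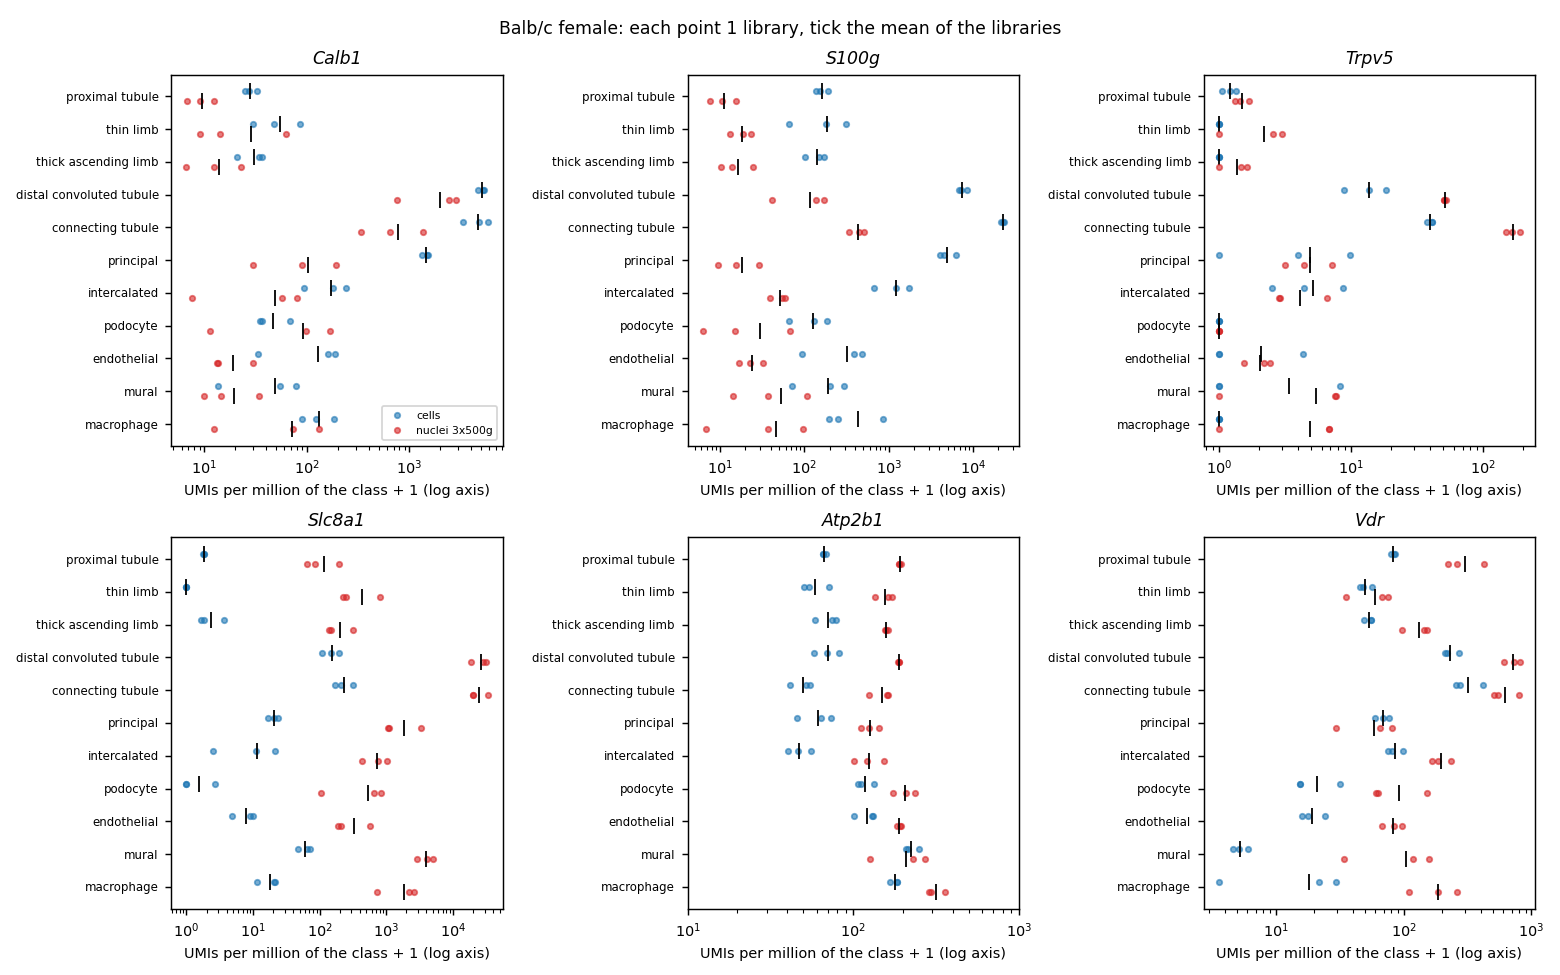
Level of each gene by cell class in Balb/c female fresh cells (blue) and 3x500g nuclei (red), each point 1 library with at least 10 barcodes of the class and each tick the mean; the horizontal log axis is CPM within the class plus 1. Calb1, S100g, Trpv5, Slc8a1 and Vdr peak in the distal convoluted and connecting tubule in both preparations, Slc8a1 lies far higher in nuclei than in cells there, and S100g lies lower in nuclei.

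Nuclei had the highest levels of these 5 genes in the same classes, at other levels. Slc8a1 stood at 26149 ± 6592 CPM in the distal convoluted tubule and 24477 ± 7662 in the connecting tubule, followed by mural cells at 4007 ± 1101. Calb1 was 2006 ± 1105 and 776 ± 519.8 CPM in the distal convoluted and connecting tubule, and S100g 116 ± 66.9 and 428 ± 86.6. Trpv5 had 50.5 ± 1.23 and 167 ± 21.4 CPM there. The 3 Calb1 values of nuclei spread widely, at 2848, 755 and 2414 CPM in the distal convoluted tubule, with replicate 2 low. Vdr was 719 ± 102 CPM in the distal convoluted tubule, 621 ± 157 in the connecting tubule and 303 ± 106 in the proximal tubule of nuclei. By molecules rather than levels, the distal convoluted and connecting tubule together held 87.3% ± 1.30 of the Calb1 UMIs of female fresh cells and 84.2% ± 1.48 of those of S100g. They also held 87.3% ± 4.57 of those of Trpv5 and 87.9% ± 1.40 of those of Slc8a1. The same classes held 38.5% ± 1.73 of the Vdr UMIs and 11.0% ± 1.03 of those of Atp2b1. The proximal tubule held 44.3% ± 2.04 and 46.3% ± 5.19. A whole-library value of Vdr or Atp2b1 therefore mixes several segments, whereas one of the other genes is mostly distal.

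Shares of barcodes were compared after thinning each barcode to 500 UMIs. S100g was found in 84.5% ± 0.915 of connecting tubule barcodes of female fresh cells (88.2% unthinned, median depth 1797 to 2594.5 UMIs). The share was 40.2% ± 3.22 of distal convoluted tubule barcodes (60.5%, 4252 to 6690 UMIs). In podocytes, which should lack it, the share was 4.60% ± 2.98 (22.9% unthinned, 3098 to 4676 UMIs), and in endothelial cells 7.70% ± 1.49 (23.9%, 1769.5 to 2651 UMIs). The proximal tubule share of 8.88% (median depth 3610 to 4157 UMIs) was close to that of endothelial cells. Whether S100g there is background was not tested.

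Calb1 was found in 70.5% ± 3.48 of connecting and 59.4% ± 5.72 of distal convoluted tubule barcodes against 2.35% ± 0.673 of podocytes. Trpv5 was found in 1.39% ± 0.25 and 1.04% ± 0.0951 of these barcodes after thinning (10.9% and 6.59% unthinned). It was in none of 405 podocytes, pooled over 3 libraries, which allows up to 0.741% of podocyte barcodes with a UMI (counting error only) and says nothing of barcodes that express it. Most distal barcodes thus carried no Trpv5 UMI at this depth. In 3x500g nuclei Slc8a1 was found in 85.9% ± 2.80 of connecting and 72.5% ± 9.30 of distal convoluted tubule barcodes. It was found in 11.1% of podocytes (median depths 3298.5 to 3609, 3051 to 3810.5 and 2543 to 3072 UMIs). Trpv5 was found in 7.12% and 2.14% of the distal barcodes against none of 217 pooled podocytes, which allows up to 1.38% with a UMI.

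The distal convoluted tubule was not uniform in these genes. Pvalb, a calcium-binding protein of the early distal convoluted tubule, was used to split its sub-clusters into those above and those below the Pvalb level of the whole class. The level was pooled over all libraries clustered together, fresh and stored alike (760 CPM for C57BL/6J cells), and each sub-cluster got 1 label. Whether storage itself moved Pvalb, and with it the labels, was not tested. The split was chosen after the data were seen and is given as a description. In female fresh cells the sub-clusters below held 11272 ± 909.7 CPM of Calb1 (SD, n = 3) and those above 1657 ± 531. S100g was 20392 ± 2547 against 399 ± 128 CPM, and Trpv5 34.0 ± 8.89 against 0.292 ± 0.505. The Pvalb-high part thus held little S100g and next to no Trpv5, but still some Calb1. Slc8a1 was 371 ± 51.9 against 25.1 ± 14.2 CPM and Vdr 352 ± 51.5 against 162 ± 22.4. Atp2b1, at 62.0 ± 21.0 against 73.4 ± 6.87, did not differ beyond its spread. Female 3x500g nuclei had 74830.1 ± 9531 against 5552 ± 1809.7 CPM of Slc8a1. They had 169 ± 24.7 against 2.22 ± 1.33 of Trpv5 and 4019 ± 1797 against 1128 ± 709 of Calb1. C57BL/6J cold fresh cells had 37946 ± 917 against 609 ± 461 CPM of S100g and 8612 ± 1612 against 1194 ± 569 of Calb1. Male nuclei had 17307 ± 2677 against 3703 ± 1215 of Slc8a1. Male fresh cells held 26 barcodes below the class level in all and were not used for this split. The share of distal convoluted tubule barcodes below the class level was 38.7% ± 5.20 in female fresh cells and 25.8% ± 3.91 in 3x500g nuclei. It was 39.2% ± 4.06 in C57BL/6J cold fresh and 37.3% ± 3.16 in warm fresh cells, each over 3 libraries. In males, set against their own Pvalb levels, it was 8.83% ± 5.92 in fresh cells and 36.7% ± 4.05 in nuclei. A class mean of these genes pools both parts.

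**Figure D2:**
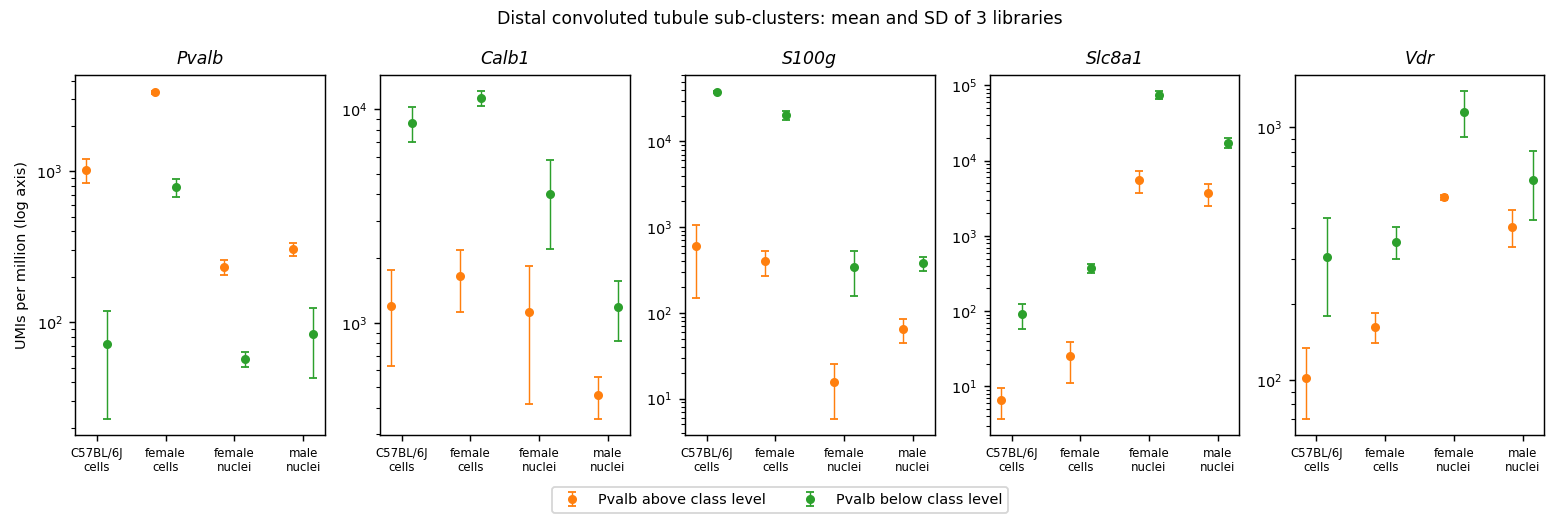
Mean and SD over 3 libraries of Pvalb, Calb1, S100g, Slc8a1 and Vdr in distal convoluted tubule sub-clusters whose Pvalb level was above (orange) or below (green) that of the class; the vertical log axes are CPM within the sub-clusters. Pvalb set the split; the other 4 genes lie higher in the Pvalb-low sub-clusters in C57BL/6J cells, female cells, female nuclei and male nuclei.

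Likeness was measured as Pearson's r over log2(mean CPM + 1) of 13 classes, which share libraries and depth, as a description. In female fresh cells Calb1 and S100g were each other's most alike gene (r = 0.965). S100g was next most alike to Scnn1g, a subunit of the epithelial sodium channel (r = 0.940), and Ptges, a prostaglandin E synthase (r = 0.939). Trpv5 was most like S100g (r = 0.917). Slc8a1 was most like Ccdc28b (r = 0.825) and then Calb1 (r = 0.807). Vdr was most like Kl, the co-receptor Klotho (r = 0.946). Atp2b1 was most like Tln1, which encodes talin (r = 0.941). In 3x500g nuclei Calb1 was instead most like Slc12a3, the thiazide-sensitive cotransporter (r = 0.982). Trpv5 was alike to Slc8a1 there (r = 0.924), and Kl was among the 3 most like Vdr (r = 0.905).

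Over the 13 groups of 10x libraries the whole-library level of these genes ranged widely. This is a description, because the experiments differ in mice, in part in chemistry and in whether mitochondrial genes are in the totals. The group means of S100g ran from 2745 ± 1695 CPM in C57BL/6J cold cryopreserved cells to 38.6 ± 12.2 in female nuclei 3x500g. With mitochondrial genes left out of the totals female cold fresh cells came first (3603 ± 636, against 3212 ± 1990.2 in the cold cryopreserved cells). Those of Calb1 ran from 746 ± 35.7 CPM in female cold fresh cells to 77.7 ± 18.7 in male nuclei 3x500g. Slc8a1 ran from 3007 ± 982 CPM in female nuclei 3x500g to C57BL/6J warm methanol cells, where the libraries listed 0, 1.29 and 0. The vitamin D receptor Vdr ran from 350.4 ± 35.7 CPM in male nuclei 3x500g to 16.8 ± 11.2 in C57BL/6J cold cryopreserved cells. Trpv5 ran from 12.8 ± 6.18 CPM in male cold fresh cells to warm methanol cells, where it was listed at 0. Atp2b1 ran from 166 ± 6.13 CPM in female nuclei 3x500g to 16.8 ± 5.35 in C57BL/6J warm methanol cells. Both calbindins were lowest in nuclei, and Slc8a1 and Vdr were highest there. Atp2b1 was highest in female nuclei (156 to 166 CPM), whereas male nuclei (89.5 ± 2.18) lay below C57BL/6J cold cryopreserved (100.2 ± 14.8) and female cryopreserved cells (99.6 ± 8.31).

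Bulk libraries allow levels to be compared between genes per kilobase of exon, taken over the exons of all annotated transcripts together. That length was 18.8 kb over 6 transcripts for Slc8a1, 15.2 kb over 11 for Atp2b1 and 0.48 kb over 1 for S100g. It can exceed the length of the RNA made, which would lower the value of a gene with many transcripts. In female intact kidney S100g led at 296 ± 22.5 CPM per kb (SD, n = 3), followed by Calb1 at 93.2 ± 9.22 and Vdr at 67.0 ± 3.27. Lower still were Atp2b1 at 9.38 ± 0.0835, Trpv5 at 6.70 ± 0.415 and Slc8a1 at 6.23 ± 0.940. Male intact kidney gave 197 ± 23.4 for S100g, 60.4 ± 11.2 for Vdr and 43.9 ± 4.46 for Calb1. There followed 10.5 ± 1.04 for Atp2b1, 9.79 ± 0.699 for Slc8a1 and 3.86 ± 0.719 for Trpv5. In females Trpv5 and Slc8a1 did not differ beyond their spread, nor did Atp2b1 and Slc8a1 in males. The kits differed (poly(A) capture in females, ribosomal RNA depletion in males), so the orders are not compared between the sexes. The C57BL/6J cold suspension gave 278 ± 29.2 for S100g, 69.5 ± 3.80 for Calb1 and 56.3 ± 4.24 for Vdr. It gave 14.2 ± 2.61 for Slc8a1, 8.31 ± 0.131 for Atp2b1 and 7.34 ± 1.60 for Trpv5.

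The first comparison asked how warm and cold dissociation of fresh C57BL/6J kidney differed in bulk. The calbindins, Trpv5 and Slc8a1 were higher after warm dissociation, and Atp2b1 and Vdr were not called. Trpv5 was 27.9, 25.6 and 17.9 CPM in the 3 cold and 50.9, 58.9 and 66.4 in the 3 warm libraries, with no overlap (log2 fold change 1.27 ± 0.14, adjusted p = 0.000145). S100g was 135, 146 and 118 against 211, 306 and 273 CPM (log2 fold change 0.96 ± 0.12, adjusted p = 0.000423). Calb1 was 355, 337 and 318 against 507, 806 and 564 CPM (log2 fold change 0.87 ± 0.14, adjusted p = 0.00200), with warm replicate 2 the highest. The channel and both calbindins were higher in every warm library than in any cold one, and so was the exchanger. Slc8a1 was 303, 285 and 211 against 425, 533 and 482 CPM (log2 fold change 0.83 ± 0.12, adjusted p = 0.000861). Atp2b1 was 124, 128 and 126 against 123, 114 and 114 CPM, lower in all warm libraries by little and not called (log2 fold change -0.14 ± 0.07, adjusted p = 0.248). Vdr was 327, 336 and 291 against 319, 361 and 313 CPM and overlapped between the groups (log2 fold change 0.03 ± 0.08, adjusted p = 0.866). The call covered 4 of 6 members, all higher, where 8.68% of the 14102 genes tested were called. The median log2 fold change was 0.85 over the members and -0.01 over all genes.

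Of the other calcium pathway genes, 8 of 22 tested were higher and 0 lower. The largest changes were in Stc1, which encodes the hormone stanniocalcin (1.84 ± 0.25, adjusted p = 0.000828), and in Trpv6, the channel closest to Trpv5 (1.27 ± 0.31, adjusted p = 0.0260). Next was Atp2b2, another calcium pump (1.14 ± 0.20, adjusted p = 0.00433). Markers of the same segments moved with the members. Higher were 7 of 7 connecting tubule, 7 of 9 distal convoluted tubule, 6 of 9 principal and 10 of 12 intercalated cell markers. The summed connecting tubule markers were 1256 to 1551 CPM in cold and 2153 to 2708 in warm libraries. The distal convoluted tubule markers were 2008 to 2575 and 2914 to 3855. Their part in the result was not tested. In bulk, more cells of a type and more RNA per cell cannot be told apart.

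The second bulk comparison set the cold suspension of female kidney against the intact organ. Trpv5 was 21.5, 23.2 and 20.5 CPM in intact kidney and 38.4, 40.2 and 28.9 in suspension (log2 fold change 0.71 ± 0.11, adjusted p = 0.00216). Calb1 was 400.2, 473 and 481 against 671, 755 and 679 CPM (log2 fold change 0.62 ± 0.07, adjusted p = 0.000320). S100g was 142, 153 and 131 against 237, 225 and 172 (log2 fold change 0.56 ± 0.11, adjusted p = 0.00643). All suspension libraries lay above all intact ones for these 3 genes. Slc8a1 was 97.6, 132 and 122 against 148, 163 and 147 CPM (log2 fold change 0.37 ± 0.09, adjusted p = 0.0195). It lost the call without cold suspension replicate 2 (0.33, adjusted p = 0.0649). Vdr was 388, 391 and 357 against 435, 449 and 423 CPM and just missed the call (log2 fold change 0.19 ± 0.06, adjusted p = 0.0516). It was called without intact replicate 1 (0.22, adjusted p = 0.0398) and by DESeq2 (adjusted p = 0.0193). Atp2b1 differed little (log2 fold change -0.07 ± 0.04, adjusted p = 0.305). The 4 of 6 members called stood against 20% of the 16538 genes tested (median log2 fold change 0.46 over the members tested and 0.00 over all genes). Beside them 5 of 7 connecting tubule markers were higher and 9 of 11 endothelial markers lower. Summed distal convoluted tubule markers were 1850 to 2001 CPM in intact kidney and 2336 to 2610 in suspension. Summed macrophage markers were 318 to 351 and 436 to 549, and fibroblast markers 121 to 159 and 37.2 to 65.2. The part of all these markers was not tested. Of the pathway list 5 of 25 were higher and 2 lower. They were led by the exchangers Slc8a2 (2.07 ± 0.44, adjusted p = 0.00917) and Slc8a3 (-1.14 ± 0.33, adjusted p = 0.0383) and by Atp2b2 (0.57 ± 0.11, adjusted p = 0.00483).

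**Figure D3:**
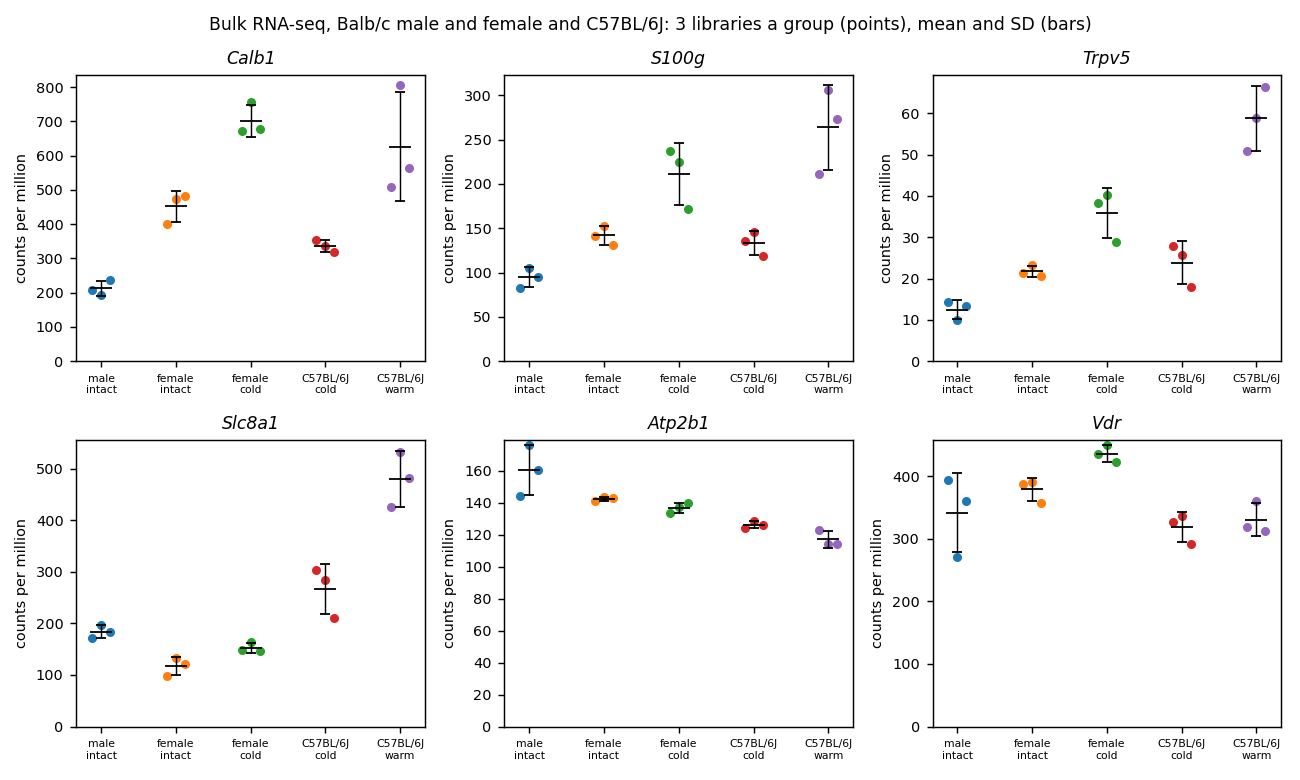
CPM of the 6 genes in the 5 bulk groups, 3 libraries each as points, with mean and SD; the vertical axes start at 0. Calb1, S100g, Trpv5 and Slc8a1 lie higher in the warm than the cold C57BL/6J suspension and in the female cold suspension than in intact kidney, and Atp2b1 stays within 114 to 176 CPM throughout.

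The same fresh C57BL/6J suspensions were also profiled by 10x, and there no member was called between warm and cold. Calb1 was 413, 279 and 316 CPM in cold and 292, 415 and 270.5 in warm libraries (log2 fold change -0.00 ± 0.20, adjusted p = 0.991). S100g was 1593, 1646 and 1718 against 1442, 2012 and 1472 (log2 fold change 0.02 ± 0.16, adjusted p = 0.959) and Trpv5 3.20, 4.10 and 4.50 against 2.86, 5.90 and 2.22 (log2 fold change 0.03 ± 0.39, adjusted p = 0.964). The groups overlapped for each of them. The count was 0 of 6 over library sums, where 14.9% of the 12061 genes tested were called (median log2 fold change -0.02 over the members tested and -0.03 over all genes). It was 0 of 6 in the distal convoluted tubule (0.186% of the 3230 genes tested) and 0 of 3 tested in the connecting tubule (0.362% of the 829 genes tested). Calb1 in the distal convoluted tubule was 4740.3, 3825 and 4293 CPM cold and 4661, 4111 and 4526 warm, and S100g 15537, 18570.2 and 14817 cold against 14923, 12876 and 17129.5 warm. Over library sums 3802 genes had an unadjusted p under 0.05 and DESeq2 called 1443. For the distal convoluted tubule these were 255 and 5, and in the connecting tubule 52 and 3. Beside this, the 10x libraries had 0 of 7 connecting tubule and 1 of 9 distal convoluted tubule markers higher after warm dissociation. There, both classes together held 6.37% ± 0.541 of UMIs cold and 5.50% ± 1.18 warm. Of the pathway list 1 of 20 was higher, the claudin Cldn19 (1.44 ± 0.24, adjusted p = 0.00708). Lower were 2, Anxa2, an annexin partner of S100a10 (-1.12 ± 0.15, adjusted p = 0.00218), and the calmodulin gene Calm2 (-0.72 ± 0.11, adjusted p = 0.00436).

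Cryopreservation was set against fresh cells for each dissociation. Each of these, and of the methanol comparisons, used the fresh libraries of its dissociation as control. Their values therefore stand side by side and are not independent. Over whole libraries Vdr fell after both. It was 65.9, 60.1 and 46.3 CPM in cold fresh and 8.81, 29.5 and 12.0 in cold cryopreserved libraries (log2 fold change -2.13 ± 0.36, adjusted p = 0.00179, and -2.95 to -1.85 with 1 library left out). It was 56.5, 60.9 and 45.9 against 25.2, 12.6 and 17.8 in warm ones (log2 fold change -2.0 ± 0.25, adjusted p = 0.000395). Atp2b1 rose after both, from 37.9, 44.0 and 42.5 to 117, 92.6 and 90.8 CPM in cold libraries (log2 fold change 0.81 ± 0.13, adjusted p = 0.00167). In warm ones it went from 37.1, 35.8 and 31.1 to 69.2, 86.5 and 72.9 (log2 fold change 0.72 ± 0.13, adjusted p = 0.00211). In neither gene did the fresh and cryopreserved libraries overlap. Calb1 was called lower in warm libraries (292, 415 and 270.5 against 193, 269.9 and 169.6 CPM; log2 fold change -1.05 ± 0.25, adjusted p = 0.00785). It missed the call in cold ones (413, 279 and 316 against 124, 357 and 208 CPM; log2 fold change -0.98 ± 0.35, adjusted p = 0.0512). There cryopreserved replicate 2 was high and the call was made without cold cryopreserved replicate 2 (-1.49, adjusted p = 0.00546). Trpv5 was listed at 0 in 2 of 3 libraries of each, at 0, 6.93 and 0 CPM cold (adjusted p = 0.476) and 0, 0 and 8.92 warm (adjusted p = 0.632). It was called lower without cold cryopreserved replicate 2 (adjusted p = 0.00417) or warm cryopreserved replicate 3 (adjusted p = 0.0143), which leaves listed zeros and no size. That made 2 of 6 members called in cold (1 higher, 1 lower) and 3 of 6 in warm libraries (1 higher, 2 lower). The background was 50.7% of the 11392 genes tested in cold (median log2 fold change -0.35 over the members tested and -0.13 over all genes). In warm libraries it was 59.8% of the 10778 genes tested (median log2 fold change -0.47 over the members tested and -0.15 over all genes), so neither share stood above the background. All 14 proximal tubule markers were lower and all 11 endothelial markers higher in both. The proximal tubule, where a large part of the Vdr UMIs of fresh cells lay, was down to 8 barcodes cold and 4 warm. Its part in these results, and that of the other classes, was not tested.

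Within the distal classes the picture differed. S100g in the distal convoluted tubule was 15537, 18570.2 and 14817 CPM in cold fresh and 27288, 47148 and 48426 in cold cryopreserved libraries, without overlap (log2 fold change 1.30 ± 0.18, adjusted p = 4.58e-06). It was the only member called of 6 (3.34% of the 2308 genes tested). With the connecting tubule added it was 18229, 22668 and 23570.0 against 27049, 48753 and 48264 CPM (log2 fold change 0.91 ± 0.19, adjusted p = 0.00415; 1 of 6 against 2.65% of the 2567 genes tested). That call was lost without cold cryopreserved replicate 2 (0.71, adjusted p = 0.118). Calb1 was not called (4740.3, 3825 and 4293 against 4193, 5083 and 4764 CPM in the distal convoluted tubule; log2 fold change 0.11 ± 0.14, adjusted p = 0.804). Nor in that class were Vdr (log2 fold change 0.23 ± 0.30, adjusted p = 0.797) and Atp2b1 (log2 fold change -0.59 ± 0.53, adjusted p = 0.686). After warm dissociation Calb1 fell instead, from 4661, 4111 and 4526 to 1841, 2439 and 1606 CPM (log2 fold change -1.19 ± 0.14, adjusted p = 0.000344). It was 1 of 3 members tested, against 3.59% of the 1534 genes tested. Vdr was not called there (log2 fold change -0.69 ± 0.38, adjusted p = 0.384), and Atp2b1 was not tested. S100g was 14923, 12876 and 17129.5 against 12004, 9038 and 9678 (log2 fold change -0.55 ± 0.17, adjusted p = 0.0880). The column headers give each stored library the kidney code of 1 fresh library, and with that code as a block S100g was called (log2 fold change -0.56 ± 0.15, adjusted p = 0.0181). With the connecting tubule added 2 of 3 were called (3.70% of the 1813 genes tested). They were Calb1 (log2 fold change -1.24 ± 0.15, adjusted p = 0.000302) and S100g (log2 fold change -0.64 ± 0.12, adjusted p = 0.00940), and the latter was lost without warm fresh replicate 1 (-0.65, adjusted p = 0.0579). The connecting tubule was thin in the cryopreserved libraries, and its part in the summed values was not tested. At a coarser clustering the Calb1 value of the distal convoluted tubule was -0.32 (adjusted p = 0.697).

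The difference between the cryopreservation effects was tested as an interaction. The effect in the distal convoluted tubule was lower after warm than after cold dissociation for S100g (log2 fold change -1.84 ± 0.27, adjusted p = 0.000658) and Calb1 (log2 fold change -1.29 ± 0.20, adjusted p = 0.000994). These were 2 of the 5 members tested, where 0.169% of the 2364 genes tested (4 in all) were called. The interactions were fitted at the main clustering only. Over library sums 0 of 6 were called (6.32% of the 11749 genes tested; all genes, 2925 at an unadjusted p under 0.05 and 1489 by DESeq2). The share of Pvalb-low barcodes in the distal convoluted tubule was 64.8% ± 19.3 in cold cryopreserved against 39.2% ± 4.06 in cold fresh cells, and 36.9% ± 2.25 against 37.3% ± 3.16 in warm ones. Within the Pvalb-low barcodes S100g was 62169 ± 3492 CPM (2 libraries with at least 10 barcodes) in cold cryopreserved against 37946 ± 917 in cold fresh cells, and 27124 ± 7600 against 37096 ± 5170 in warm ones. Calb1 there was 6114 ± 728 in cold cryopreserved against 8612 ± 1612 in cold fresh cells and 3838 ± 619 against 9722 ± 1172 in warm ones. The barcodes were also spread differently over sub-clusters. One Pvalb-low sub-cluster held 4.32% of cold fresh and 29.9% of cold cryopreserved distal convoluted tubule barcodes, and 1.98% and 26.0% of warm ones. The cold cryopreserved distal convoluted tubule held 18, 85 and 41 barcodes. Trpv5 was at 0 in replicates 1 and 3 and Slc8a1 in replicate 1 there.

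**Figure D4:**
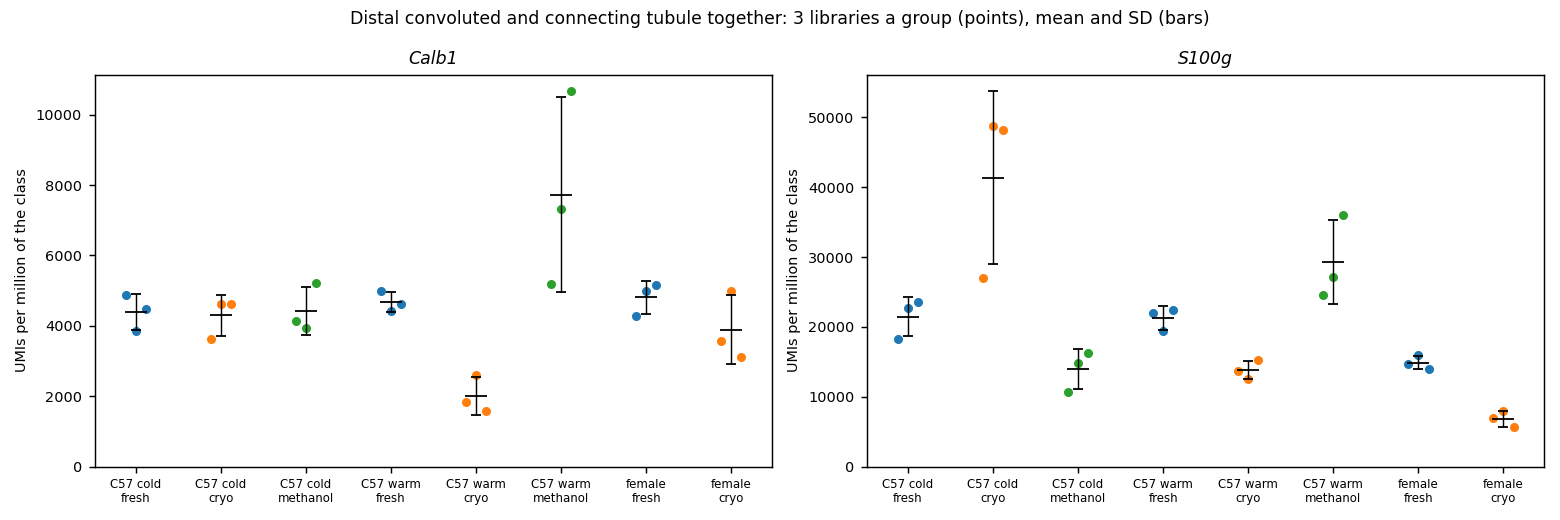
Calb1 and S100g in the distal convoluted and connecting tubule summed, in CPM within these classes, by storage: 3 libraries a group as points, mean and SD as bars, axes from 0. C57BL/6J cold cryopreserved libraries lie above the cold fresh ones for S100g, warm cryopreserved libraries lie below the warm fresh ones for both genes, and female cryopreserved libraries lie below the fresh ones for S100g. The connecting tubule was thin in C57BL/6J cryopreserved libraries and held a smaller share of UMIs in female ones, and the part of this was not tested.

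Methanol-fixed cells were set against the same fresh libraries. Over whole libraries Atp2b1 fell after both dissociations. Beside it 7 of 11 podocyte, 5 of 11 endothelial and 4 of 10 macrophage markers were lower and 2 of 4 hemoglobin genes higher in cold methanol. In warm methanol 3 of 6 podocyte and 4 of 11 endothelial markers tested were lower and 4 of 4 hemoglobin genes higher. Their part was not tested. Atp2b1 was 37.9, 44.0 and 42.5 CPM fresh and 23.4, 22.9 and 26.4 in methanol for cold (log2 fold change -0.80 ± 0.14, adjusted p = 0.00489). It was 37.1, 35.8 and 31.1 against 22.9, 13.1 and 14.2 for warm (log2 fold change -1.12 ± 0.20, adjusted p = 0.0102), without overlap. Calb1 was higher in cold methanol (485, 458 and 512 CPM; log2 fold change 0.50 ± 0.14, adjusted p = 0.0290). It lost the call without cold fresh replicate 2 or 3 or cold methanol replicate 2 or 3 (0.39 to 0.54, adjusted p = 0.0601 to 0.0944). In warm methanol it was 288, 544 and 502 CPM (log2 fold change 0.39 ± 0.28, adjusted p = 0.402). Trpv5 was listed at 0 in all 3 warm methanol libraries, against 2.86, 5.90 and 2.22 CPM in warm fresh cells, and was called (adjusted p = 0.0304). No fold is given, since the gene filter may set these zeros. The call was lost in 3 of the 4 fits without 1 library that still tested it (adjusted p = 0.0618 to 0.0884). With the kidney code of the headers as a block Trpv5 was not called (adjusted p = 0.251). S100g, at 1442, 2012 and 1472 CPM fresh and 1882, 3048 and 2359.9 in warm methanol, then was (log2 fold change 0.50, adjusted p = 0.000550; without the block 0.51 ± 0.23, adjusted p = 0.188). The members called were 2 of 6 in cold methanol (27.9% of the 11910 genes tested, median log2 fold change 0.02 over the members tested and -0.08 over all genes). They were 2 of 5 tested in warm methanol (17.3% of the 10826 genes tested). That count includes Trpv5, whose zeros the gene filter may set.

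In the distal convoluted tubule of cold methanol cells 4 of the 4 members tested were lower, where 27.1% of the 2820 genes tested were called. S100g was 15537, 18570.2 and 14817 CPM fresh and 4763, 3033 and 6902 in methanol (log2 fold change -2.06 ± 0.20, adjusted p = 5.35e-08). Calb1 was 4740.3, 3825 and 4293 against 2433, 1618 and 3368 (log2 fold change -1.11 ± 0.18, adjusted p = 4.99e-05). Vdr was 216, 257 and 103 against 61.9, 92.6 and 87.1 CPM (log2 fold change -1.50 ± 0.29, adjusted p = 0.000447). Atp2b1 was 42.0, 49.3 and 56.0 against 10.3, 4.41 and 21.8 (log2 fold change -2.22 ± 0.49, adjusted p = 0.00161). Its value was -3.16 to -1.66 in the 4 fits without 1 library that still tested it. No fresh library overlapped a methanol one for these 4 genes. Only the Atp2b1 call held at a coarser clustering. There S100g turned to 0.54 (adjusted p = 0.166), Calb1 was -0.33 and Vdr -0.78. The share of Pvalb-low barcodes was 25.1% ± 9.89 in methanol against 39.2% ± 4.06 fresh, and S100g in them was 12892 ± 4490 against 37946 ± 917 CPM. The class lay in different sub-clusters after methanol. One with high Pvalb in methanol held 1.51% of fresh and 46.9% of methanol barcodes, and the main S100g-rich one 28.5% and 3.77%. Within the latter S100g was 42482 CPM fresh and 40071 in methanol, and Calb1 9355 and 15269, over 132 and 12 barcodes. The connecting tubule also lay elsewhere, with 1 sub-cluster at 19.1% of fresh and 68.7% of methanol barcodes. S100g in that class was 42038, 37509 and 46794 CPM fresh against 29468, 36011 and 34681 in methanol (log2 fold change -0.61 ± 0.17, adjusted p = 0.0147). That call was lost without cold fresh replicate 3 or cold methanol replicate 1 (-0.50 to -0.49, adjusted p = 0.0571 to 0.0831). Calb1 was higher there, at 6047, 3965 and 4945 against 9530.0, 8133 and 8785 CPM (log2 fold change 0.55 ± 0.17, adjusted p = 0.0334), which made 2 of 4 tested (14.0% of the 1204 genes tested). This call was lost without cold fresh replicate 2 or 3 or cold methanol replicate 1, 2 or 3 (0.40 to 0.61, adjusted p = 0.0692 to 0.236), and the value turned to -0.15 at the coarser clustering. With both classes summed, which does not rest on where they were parted, 4 of 6 were lower (26.7% of the 3501 genes tested). They were S100g (log2 fold change -0.87 ± 0.17, adjusted p = 0.00100), Trpv5 (log2 fold change -1.68 ± 0.45, adjusted p = 0.00963) and Vdr (log2 fold change -1.12 ± 0.24, adjusted p = 0.00229). The fourth was Atp2b1 (log2 fold change -1.32 ± 0.35, adjusted p = 0.00918), lost without cold methanol replicate 2 (-1.07, adjusted p = 0.0928). Over whole cold methanol libraries Trpv5 was 1.66 ± 1.45 CPM and listed at 0 in the lowest. The gene filter may set that zero, so the fitted Trpv5 value is no measure of size. Calb1 was at -0.23 ± 0.13 (adjusted p = 0.209), and at 0.01 on the log2 ratio of mean CPM. Of the pathway list 5 of 10 were lower and 1 higher in the distal convoluted tubule. They were led by Kl (-1.99 ± 0.15, adjusted p = 6.48e-10), the calcium pump Atp2b4 (-1.84 ± 0.42, adjusted p = 0.00196) and the kinase Wnk4 (-1.12 ± 0.17, adjusted p = 2.88e-05).

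After warm dissociation 1 call of a member was made over the distal classes with methanol, and 3 calls, of 2 members, with the kidney code as a block. These were Calb1 (log2 fold change -0.48 ± 0.12, adjusted p = 0.000625) and Vdr (log2 fold change -0.99 ± 0.35, adjusted p = 0.0246) in the distal convoluted tubule and Calb1 in the connecting tubule (log2 fold change 0.85 ± 0.21, adjusted p = 0.00241). The direction of Calb1 in the distal convoluted tubule depended on the scaling, since its mean CPM was slightly higher in methanol (log2 ratio 0.08) and rose in 2 of 3 pairs. The values that follow are without the block. S100g in the distal convoluted tubule was 14923, 12876 and 17129.5 CPM fresh and 12162, 15454 and 29298 in methanol (log2 fold change -0.15 ± 0.21, adjusted p = 0.668). Calb1 was 4661, 4111 and 4526 against 2489.7, 4562 and 6976 (log2 fold change -0.44 ± 0.21, adjusted p = 0.173), and both overlapped. For both the fitted value was negative while the log2 ratio of mean CPM was positive (0.34 for S100g), so no direction is given. There 0 of 3 tested were called, where 16.6% of the 1774 genes tested were. Over all genes 552 had an unadjusted p under 0.05 and DESeq2 called 137. In the connecting tubule Calb1 was 6599, 5529 and 5083 against 10219, 13614 and 13946 CPM (log2 fold change 0.86 ± 0.19, adjusted p = 0.0197), 1 of 2 tested (6.49% of the 570 genes tested). The call was lost without warm fresh replicate 3 or warm methanol replicate 2 or 3 (0.78 to 0.80, adjusted p = 0.0677 to 0.108), and the value was -0.13 when barcodes were named by marker score. One sub-cluster held 2.72% of fresh and 40.0% of methanol barcodes of the distal convoluted tubule, and another 18.4% and 55.5% of those of the connecting tubule. Both classes together gave 0 of 3 (18.1% of the 2309 genes tested; 735 at an unadjusted p under 0.05 and 167 by DESeq2). With the block Calb1 was called there (log2 fold change 0.35 ± 0.12, adjusted p = 0.0254). The interaction of methanol with dissociation was called for S100g in the distal convoluted tubule (log2 fold change 1.94 ± 0.30, adjusted p = 0.000889). It was 1 of 6, where 0.0649% of the 3083 genes tested (2 in all) were called. S100g over both classes gave 1.08 ± 0.22 (adjusted p = 0.0647). With the kidney code as a block within each dissociation it was called (log2 fold change 1.09 ± 0.14, adjusted p = 7.75e-09), as was Calb1 (log2 fold change 0.67 ± 0.16, adjusted p = 0.0159; without the block 0.70 ± 0.22, adjusted p = 0.684). In the connecting tubule 0 of 3 and 0.00% of the 769 genes tested were called (28 genes at an unadjusted p under 0.05 and 0 by DESeq2). Over library sums 0 of 6 and 0.00% of the 12001 genes tested were called (1205 and 177).

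In the females 4 of the 5 members tested were lower over whole libraries after cryopreservation. The study compared aliquots here too, but the column headers give no shared kidney code, so the pairing was left out of these fits. S100g was 2814, 2403 and 2040.1 CPM fresh and 596, 774 and 601 cryopreserved (log2 fold change -2.25 ± 0.16, adjusted p = 1.19e-05). Calb1 was 786, 734 and 718 against 283, 479.6 and 359.5 (log2 fold change -1.36 ± 0.17, adjusted p = 0.000235). Vdr was 93.3, 95.4 and 95.5 against 41.6, 61.0 and 42.7 (log2 fold change -1.33 ± 0.14, adjusted p = 8.79e-05). The groups did not overlap for any of these 3 genes. Slc8a1 was 35.1, 23.6 and 28.5 against 20.6, 29.6 and 25.3 CPM, which overlap, and was called lower (log2 fold change -0.57 ± 0.17, adjusted p = 0.0179). It lost the call without cold cryopreserved replicate 1 or 3 (-0.56 to -0.44, adjusted p = 0.0537 to 0.0742). Atp2b1 was not called (log2 fold change 0.09 ± 0.09, adjusted p = 0.385). Trpv5 was 4.71, 3.95 and 3.25 CPM in fresh libraries and 2.62 and 2.84 in cryopreserved replicates 1 and 2. It was left out of the test because replicate 3 did not list it. The 4 calls stood against 58.0% of the 11947 genes tested (median log2 fold change -1.33 over the members tested and 0.02 over all genes). In these libraries 13 of 13 proximal tubule markers were lower. The connecting tubule held 2.06% ± 0.549 of UMIs after cryopreservation and 6.73% ± 1.47 before, whose part was not tested. Within classes S100g alone was called. It was 21492, 23372 and 23031 CPM fresh against 13388, 13639.8 and 8510.4 in the connecting tubule (log2 fold change -0.90 ± 0.16, adjusted p = 0.00151; 1 of 5 against 4.29% of the 4876 genes tested). One sub-cluster low in S100g (1473 CPM in cryopreserved cells) held 2.58% of fresh and 19.8% of cryopreserved connecting tubule barcodes. In the largest one, 47.6% and 32.1% of them, S100g was 26901 CPM fresh and 19196 cryopreserved. S100g was 7221, 8428 and 6935 against 5059.9, 5512 and 4539.7 in the distal convoluted tubule (log2 fold change -0.53 ± 0.11, adjusted p = 0.0201; 1 of 5 against 0.920% of the 5872 genes tested). The latter call was lost without cold fresh replicate 2 (-0.42, adjusted p = 0.148). Calb1 in the distal convoluted tubule was 5373, 5238 and 4651 against 4180.5, 5126 and 3139 CPM (log2 fold change -0.24 ± 0.14, adjusted p = 0.425). In the Pvalb-low part S100g was 20392 ± 2547 CPM fresh and 12887 ± 778 cryopreserved. The direction of S100g in the distal convoluted tubule was thus opposite in C57BL/6J cold cells (higher) and in females (lower) after cryopreservation. The difference between them was not tested, and the experiments differ in strain, sex, age, storage time, chemistry and the speed of the spins after thawing. Of the pathway list 9 of 20 were higher and 7 lower over libraries. They were led by Kl (-1.36 ± 0.16, adjusted p = 0.000161), Pth1r, the parathyroid hormone receptor (-1.25 ± 0.21, adjusted p = 0.00104), and the kinase Sgk1 (1.19 ± 0.24, adjusted p = 0.00286).

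Nuclei and cells of the same strain and sex differed in these genes in opposite directions from gene to gene. S100g was 1713, 2809 and 1670.1 CPM in male cells and 84.9, 69.5 and 84.8 in male nuclei (log2 fold change -4.88 ± 0.29, adjusted p = 2.27e-06). It was 2814, 2403 and 2040.1 against 49.7, 25.6 and 40.5 in females (log2 fold change -6.98 ± 0.34, adjusted p = 1.26e-07). Calb1 was 472, 729 and 685 against 56.2, 86.3 and 90.6 CPM in males (log2 fold change -3.19 ± 0.25, adjusted p = 9.81e-06). It was 786, 734 and 718 against 281, 75.8 and 207 in females (log2 fold change -2.98 ± 0.44, adjusted p = 0.000210). Both calbindins were lower in every library of nuclei than in every library of cells. Slc8a1 went the other way, from 0, 4.66 and 0 to 1030.3, 1271 and 1108 CPM in males (log2 fold change 8.88 ± 0.50, adjusted p = 1.86e-06). Leaving out 1 library gave 8.30 to 15.6, the highest without cold fresh replicate 2. Male cells had 12 UMIs of it, all in replicate 2, and the gene filter may set the zeros of the others. In females it went from 35.1, 23.6 and 28.5 to 4049, 2099.8 and 2871 (log2 fold change 5.70 ± 0.31, adjusted p = 2.68e-07). Vdr was 85.1, 101 and 149.7 against 309, 369 and 373 CPM in males (log2 fold change 1.49 ± 0.19, adjusted p = 0.000179). In females it was 93.3, 95.4 and 95.5 against 246, 241 and 337 (log2 fold change 0.52 ± 0.15, adjusted p = 0.00962), with no overlap in either sex. Trpv5 was lower in male nuclei (6.08, 18.3 and 13.9 against 5.01, 7.29 and 6.03 CPM; log2 fold change -1.29 ± 0.39, adjusted p = 0.0144). The call was lost without cold fresh replicate 2 or nuclei 3x500g replicate 1 or 3 (-1.25 to -0.82, adjusted p = 0.0571 to 0.103). In females it was 4.71, 3.95 and 3.25 against 11.6, 9.47 and 10.9 CPM. Over the genes listed in both that is a log2 ratio of 0.85, which TMM scaling left at 0.40 ± 0.18 (adjusted p = 0.0709). It was called without nuclei 3x500g replicate 2 (0.52, adjusted p = 0.0348). Atp2b1 was called in neither (0.17 ± 0.12 and 0.18 ± 0.09, adjusted p = 0.227 and 0.0727), but in females without nuclei 3x500g replicate 2 (0.25, adjusted p = 0.0199). The calls were 5 of 6 members in males, where 81.3% of the 14027 genes tested were called and the median log2 fold change of all genes was 0.84. They were 4 of 6 in females, where 84.8% of the 13762 genes tested were called and that median was 0.10. The male share lay near the background and the female share below it. Beside them 7 of 9 distal convoluted tubule markers were higher and 5 of 7 connecting tubule and 10 of 11 podocyte markers lower in male nuclei. In female nuclei 4 of 7 connecting tubule, 8 of 11 podocyte and 9 of 10 macrophage markers were lower. The distal convoluted tubule held 2.83% ± 0.547 of UMIs of male cells and 5.64% ± 0.361 of those of male nuclei. Their part was not tested. In females mitochondrial genes took 31.3% to 33.6% of the UMIs of fresh cells and are not listed for nuclei, which lowers the CPM of the cells but not the fitted values. Reads of nuclei were counted over introns and exons and those of cells over exons alone. Nuclei were sorted from flash-frozen kidney, and cells came from fresh kidney dissociated cold. The effects of these steps and of the counting cannot be told apart here from that of RNA held in the nucleus or the cytoplasm.

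Within the classes too both calbindins were lower and Slc8a1 higher in nuclei. In the female distal convoluted tubule all 6 were called (80.4% of the 9875 genes tested). Lower were S100g (log2 fold change -7.00 ± 0.36, adjusted p = 2.64e-13) and Calb1 (log2 fold change -2.32 ± 0.30, adjusted p = 7.01e-07). Slc8a1 was higher (log2 fold change 6.44 ± 0.26, adjusted p = 4.04e-15), and the remaining values were 0.96 ± 0.22 for Trpv5 (adjusted p = 0.000561), 0.65 ± 0.14 for Vdr (adjusted p = 0.000287) and 0.47 ± 0.13 for Atp2b1 (adjusted p = 0.00204). S100g there was 7221, 8428 and 6935 CPM in cells and 138, 40.5 and 169 in nuclei. Slc8a1 was 194, 149 and 108 against 31104, 18668 and 28675. No library of cells overlapped one of nuclei for either gene. In the female connecting tubule 5 of 6 were called (79.7% of the 9595 genes tested). They were S100g (-6.90 ± 0.25), Calb1 (-3.72 ± 0.39, and -4.46 to -3.35 with 1 library left out), Slc8a1 (5.58 ± 0.29), Trpv5 (0.91 ± 0.15) and Atp2b1 (0.43 ± 0.17). The Atp2b1 call was lost without cold fresh replicate 1 or 3 or nuclei 3x500g replicate 1 or 3 (0.29 to 0.42, adjusted p = 0.0643 to 0.191). Vdr there was 316 ± 87.7 CPM in cells and 621 ± 157 in nuclei. The log2 ratio over the genes listed in both, 0.42, became -0.18 ± 0.19 after TMM scaling (adjusted p = 0.415). Its direction thus depended on the scaling. In the male distal convoluted tubule 4 of 5 tested were called (64.5% of the 5208 genes tested, median log2 fold change of all genes 0.60). Calb1 (log2 fold change -2.84 ± 0.23, adjusted p = 5.73e-14) and S100g (log2 fold change -4.65 ± 0.28, adjusted p = 4.56e-18) were lower. Vdr (log2 fold change 0.97 ± 0.28, adjusted p = 0.00291, and 0.83 to 1.78 with 1 library left out) and Slc8a1 were higher. The part of the Pvalb-low share of this class was not tested. Slc8a1 there was listed at 0 in all 3 libraries of cells and was 8559, 10993 and 9807 CPM in nuclei. No fold is given, since the gene filter may set these zeros. In the male connecting tubule 4 of 6 were called (72.0% of the 5102 genes tested, median log2 fold change of all genes 0.70). They were S100g (-5.43 ± 0.40), Calb1 (-4.20 ± 0.30), Slc8a1 (7.93 ± 0.47, and 7.56 to 14.2 with 1 library left out, the highest again without cold fresh replicate 2) and Trpv5 (-0.78 ± 0.34, adjusted p = 0.0366). The Trpv5 call was lost without cold fresh replicate 2 or 3 or nuclei 3x500g replicate 1, 2 or 3 (-0.72 to -0.49, adjusted p = 0.0708 to 0.261) and with DESeq2 (-0.67, adjusted p = 0.135). Of the pathway list 13 of 21 were lower and 4 higher in male nuclei. In female nuclei 14 of 23 were lower and 3 higher. Calm3, a calmodulin gene, was lower in both (-4.23 ± 0.15, adjusted p = 4.16e-07 and -5.37 ± 0.12, adjusted p = 4.14e-09). In males Trpv6 and Casr, the calcium-sensing receptor, had larger fitted changes. Trpv6 was listed at 0 in all 3 libraries of cells and was 2.24, 2.08 and 1.97 CPM in nuclei (fitted 6.39 ± 0.88, adjusted p = 0.000753). Casr was 0, 0 and 8.81 against 54.7, 74.0 and 56.0 CPM (fitted 4.62 ± 0.67, adjusted p = 0.000327). With those zeros neither fitted value is a measure of size. The gene filter may set the Trpv6 zeros, so its call, counted among the 4 higher, is not read as a difference. In females S100a10, a member of the S100 gene family, was lower too (-4.30 ± 0.10, adjusted p = 4.41e-09).

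**Figure D5:**
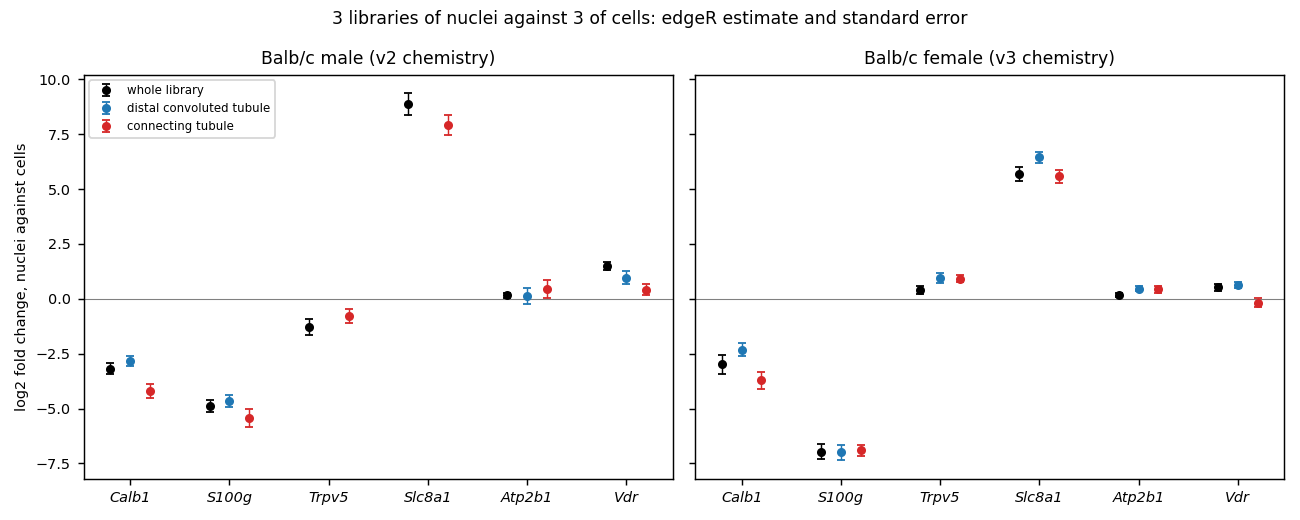
The log2 fold change of nuclei against cells (edgeR estimate, bars the standard error, 3 libraries a side) for each gene over whole libraries (black), the distal convoluted tubule (blue) and the connecting tubule (red), in males (left) and females (right); the line marks 0. Calb1 and S100g lie below 0 and Slc8a1 above 0 in both; Slc8a1 of the male distal convoluted tubule, listed at 0 in cells, and Trpv5 there, not tested, are not drawn.

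The nuclei effect differed between the male and female experiments, which also differ in age, sex and chemistry. Over library sums the interaction, female minus male, was called for 4 of 6 members (54.6% of the 13430 genes tested; median of all genes -0.75). The effect was lower in females for S100g (log2 fold change -2.20 ± 0.42, adjusted p = 0.000830), Slc8a1 (log2 fold change -3.29 ± 0.72, adjusted p = 0.00213) and Vdr (log2 fold change -1.08 ± 0.26, adjusted p = 0.00378). The Slc8a1 value is set against male cells listed at 0 in 2 of 3 libraries and is no measure of size. The size of the Vdr value depended on the scaling. On the log2 ratio of mean CPM over the genes that all libraries of each comparison list, its nuclei effect was 0.96 in females and 1.65 in males, a difference of -0.68, and DESeq2's size factors gave -0.66. For S100g that ratio differed by -1.85. The effect was higher in females for Trpv5 (log2 fold change 1.60 ± 0.45, adjusted p = 0.00938), and by 1.91 on the ratio of mean CPM. Calb1 was not called (log2 fold change 0.10 ± 0.54, adjusted p = 0.884; 0.45 on the ratio of mean CPM), nor was Atp2b1 (log2 fold change -0.10 ± 0.15, adjusted p = 0.610). The direction of Atp2b1 turned with the scaling (0.33 with DESeq2's size factors). In the distal convoluted tubule 3 of 6 were called (24.8% of the 9248 genes tested, median of all genes -1.10). They were Trpv5 (log2 fold change 1.99 ± 0.68, adjusted p = 0.0261), Slc8a1, whose male cells are at 0, and S100g (log2 fold change -2.73 ± 0.43, adjusted p = 2.83e-06). DESeq2 gave -1.94 for S100g (adjusted p = 0.0523). In the connecting tubule 1 of 6 was called (12.2% of the 8923 genes tested, median of all genes -0.25), Trpv5 (log2 fold change 2.20 ± 0.37, adjusted p = 0.000153). Trpv5 was thus higher in female than in male nuclei relative to their cells over libraries and in the connecting tubule. In the distal convoluted tubule Trpv5 was not tested in males alone. Male cells held 158300 UMIs of that class in all, so its value there is a poor measure of size.

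The 3 ways to isolate female nuclei were compared with 3x500g as the shared reference. After the sucrose gradient Slc8a1 was 1276, 1082 and 1776 CPM against 4049, 2099.8 and 2871 at 3x500g (log2 fold change -1.15 ± 0.28, adjusted p = 0.0118), with no overlap. Vdr was 139.8, 158 and 214 against 246, 241 and 337 (log2 fold change -0.70 ± 0.19, adjusted p = 0.0183). These were 2 of 6 members, where 45.3% of the 17304 genes tested were called. Beside them 5 of 9 distal convoluted tubule and 5 of 9 thick ascending limb markers were lower, and 10 of 11 endothelial, 7 of 7 fibroblast and 8 of 10 macrophage markers higher. The part of these markers was not tested. The Vdr call was lost without nuclei 3x500g replicate 3 or nuclei sucrose replicate 1 or 2 (-0.65 to -0.51, adjusted p = 0.0576 to 0.0651). Calb1, 78.5, 84.6 and 107 CPM after sucrose (log2 fold change -1.09 ± 0.43, adjusted p = 0.0696), became called without nuclei 3x500g replicate 2 (-1.48, adjusted p = 0.00172). Of the 6, 3 were lower in the distal convoluted tubule (27.0% of the 10362 genes tested). They were Slc8a1, at 12153, 10879.5 and 15050.1 CPM (log2 fold change -0.92 ± 0.18, adjusted p = 0.00142), Vdr (log2 fold change -0.66 ± 0.14, adjusted p = 0.00248) and Calb1 (log2 fold change -0.94 ± 0.30, adjusted p = 0.0265). The last was lost without nuclei 3x500g replicate 1 or 3 or nuclei sucrose replicate 1 or 2 (-0.91 to -0.56, adjusted p = 0.0890 to 0.121) and with DESeq2 (adjusted p = 0.282). The class lay in different sub-clusters in the 2 preparations. One held 35.4% of 3x500g and 3.30% of sucrose barcodes and another 9.93% and 40.7%. Slc8a1 was 6755 and 2231 CPM in the former and 11240 and 5068 in the latter, and it was lower after sucrose in each of the 7 sub-clusters. In the connecting tubule 3 of 6 were lower (17.7% of the 10076 genes tested). Slc8a1 (log2 fold change -1.07 ± 0.23, adjusted p = 0.00661) was lost without nuclei sucrose replicate 2 (-0.90, adjusted p = 0.0513). Vdr (log2 fold change -0.72 ± 0.18, adjusted p = 0.0143) was lost without nuclei sucrose replicate 1 or 2 (-0.66 to -0.63, adjusted p = 0.0742 to 0.0841). Trpv5 (log2 fold change -0.58 ± 0.17, adjusted p = 0.0267) was lost without nuclei 3x500g replicate 3 or nuclei sucrose replicate 1 or 2 (-0.64 to -0.40, adjusted p = 0.0666 to 0.122). S100g was called in none of the 3 sucrose fits. At 1x2000g S100g was the only member called over libraries (34.9% of the 17449 genes tested), at 98.5, 51.6 and 147 CPM against 49.7, 25.6 and 40.5 (log2 fold change 1.34 ± 0.40, adjusted p = 0.0377). It lost the call without nuclei 3x500g replicate 2 or 3 or nuclei 1x2000g replicate 1 or 3 (0.95 to 1.38, adjusted p = 0.0844 to 0.129). In the same libraries 4 of 4 hemoglobin genes, 7 of 9 macrophage, 8 of 11 endothelial and 4 of 6 fibroblast markers tested were higher and 4 of 9 distal convoluted tubule markers lower, and whether they bear on S100g was not tested. Trpv5 in the distal convoluted tubule was 34.2, 29.4 and 35.3 CPM at 1x2000g and 50.1, 49.5 and 51.9 at 3x500g (log2 fold change -0.53 ± 0.15, adjusted p = 0.0272; 1 of 6 against 15.7% of the 10664 genes tested). Here too sub-clusters differed, with 1 at 5.31% of 3x500g and 29.1% of 1x2000g barcodes. The call was lost without nuclei 3x500g replicate 1 or 3 or nuclei 1x2000g replicate 2 or 3 (-0.60 to -0.43, adjusted p = 0.0525 to 0.0927) and not made by DESeq2 (adjusted p = 0.0938). In the connecting tubule 0 of 6 were called (11.2% of the 10131 genes tested; 2717 genes at an unadjusted p under 0.05 and 576 by DESeq2). Replicate 2 of 3x500g was low in Calb1 (281, 75.8 and 207 CPM) and Slc8a1, and replicate 2 of 1x2000g likewise (231, 72.0 and 150.3 CPM of Calb1).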

How the data were processed

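All 54 libraries were used, in the 18 groups that the labels give. The deposited files hold counts made by the authors: UMI counts per gene and barcode for 10x libraries (Cell Ranger 2.1.1, exonic reads for cells and intronic plus exonic reads for nuclei, a stated filter of at least 10 cells per gene, no mitochondrial genes listed for nuclei and male cells) and counts per gene for bulk libraries (STAR 2.6.1a and featureCounts). A gene not listed in every library of a comparison was left out of it.

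Barcodes were clustered per experiment and preparation (2000 variable genes without the 6 genes, 30 components, 20 neighbours, Leiden resolution 2) and named from marker lists, and marked doublets were kept. UMIs were summed per library and per class with at least 10 barcodes. Sums were tested with edgeR 4.0.16 (quasi-likelihood, TMM, its default filter on low counts, Benjamini-Hochberg over all genes tested) in R 4.3.3, first on simulated counts. DESeq2 1.42.0, other size factors, no filter, other clusterings and leaving out each library were alternatives. Both distal classes summed, the Pvalb split and a block on the kidney code in the column headers were added after the data were seen. The code was taken to pair stored with fresh libraries, since the study stored aliquots of the fresh suspensions and a code is shared by 1 fresh, 1 cryopreserved and 1 methanol library. Same-code deviations correlated at 0.10 to 0.57 for methanol and at -0.098 to 0.13 for cryopreservation. The interactions of storage with dissociation were also fitted with that block. The text names all 6 genes and, of the pathway list, the 3 called genes with the largest changes, except results that are not reported here. Members, gene lists and tests were chosen with earlier results of these data known. Promoters came from RefSeq (GRCm38.p6) and loci from GENCODE on GRCm38.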

Additional observations from a re-analysis of the deposited data

Results flagged for a closer look

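Several effects of these genes differed between groups when the difference itself was tested, by an interaction term in edgeR's quasi-likelihood fit with Benjamini-Hochberg adjustment. In the distal convoluted tubule the effect of cryopreservation was lower after warm than after cold dissociation, by 1.84 ± 0.27 for S100g and 1.29 ± 0.20 for Calb1 on the log2 scale (values of -1.84 and -1.29). S100g lay lower in all 3 warm cryopreserved libraries than in any warm fresh library, and so did Calb1. The cold cryopreserved class held 144 barcodes, and the part of its Pvalb-low share in these values was not tested. The warm Calb1 effect was not called at the coarser clustering, at which the interactions were not refitted.

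For methanol the difference went the other way in that class, with 1.94 ± 0.30 for S100g. The cold effect in it turned to 0.54 at the coarser clustering, and the value over both distal classes was not called (adjusted p = 0.0647) except with the kidney code as a block (1.09 ± 0.14, adjusted p = 7.75e-09).

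The effect of taking nuclei in place of cells was lower in the female than in the male experiment for S100g (-2.20), Slc8a1 (-3.29) and Vdr (-1.08) over whole libraries and higher for Trpv5 (1.60), beside a median of -0.75 over all genes. The Slc8a1 value is set against male cells listed at 0 in 2 of 3 libraries and is no measure of size. The Vdr value was -0.68 on the log2 ratio of mean CPM over the genes listed in all libraries of a comparison. In the distal convoluted tubule the values were -2.73 for S100g and 1.99 for Trpv5, beside a median of -1.10 over all genes. S100g there was at -1.94 on the log2 ratio of mean CPM and was not called by DESeq2. Trpv5 was not tested there in males alone, so its value is a poor measure of size. In the connecting tubule the value was 2.20 for Trpv5, beside a median of -0.25. The fitted -9.42 for Slc8a1 in the distal convoluted tubule is set against male cells listed at 0 and is no measure of size. Sex, age and chemistry cannot be told apart in these differences.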

How the results depend on the processing

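Of 932 alternative values of the 88 called results, 844 kept direction and call, 85 lost the call and 3 reversed. The 51 results not called were those over bulk and whole libraries only, interactions included. Of their 410 values, 366 stayed so, 17 became called and 27 reversed. The cause was not tested in any of these. Results not called within the distal classes were not tallied. Some of them became called with the replicate block. S100g in the distal convoluted tubule of warm cryopreserved cells was 1 (edgeR adjusted p = 0.0880 without and 0.0181 with the block). Counts of calls of members that moved were, over the distal classes (a member counts once in each of the 2 classes), 2 for cold cryopreserved cells at the coarser clustering (1 in the report), 2 without the filter on low counts, 2 with the replicate block, 0 at the coarser clustering and 4 with names by marker score for warm cryopreserved cells (1), 2 for cold methanol at the coarser clustering (6), 2 without the filter, 3 with the replicate block, 3 with at least 20 barcodes and 0 at the coarser clustering or with names by marker score for warm methanol (1), and 4 without the filter and 0 by DESeq2 for 1x2000g nuclei (1). Over whole libraries they were 1 without the filter for warm methanol (2) and 2 with DESeq2's size factors or DESeq2 for 1x2000g nuclei (1).

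Values that reversed were S100g (-0.0109) and Trpv5 (-0.0803) with the replicate block and Trpv5 (-0.0435) by DESeq2 for fresh warm against cold, Slc8a1 (-0.16) with the replicate block for warm cryopreserved libraries, Calb1 (0.0216) with it in the cryopreservation interaction over libraries, S100g (0.54) in the distal convoluted and Calb1 (-0.15) in the connecting tubule for cold methanol at the coarser clustering, Calb1 (-0.13) in the connecting tubule for warm methanol with names by marker score, and Atp2b1 in the nuclei interaction with DESeq2's size factors (0.33) and DESeq2 (0.34).

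Leaving out 1 library gave, for calls of members over whole libraries and then over the 2 distal classes (a member again counting once in each), 4 to 4 in bulk warm against cold, 3 to 5 in bulk female suspension, 0 to 0 and 0 to 0 in fresh warm against cold, 2 to 4 and 1 to 1 in cold cryopreserved, 3 to 4 and 1 to 2 in warm cryopreserved, 1 to 2 and 3 to 7 in cold methanol, 1 to 2 and 0 to 2 in warm methanol, 3 to 4 and 1 to 3 in female cryopreserved, 4 to 5 and 8 to 9 in male nuclei, 4 to 6 and 10 to 11 in female nuclei, 0 to 2 and 0 to 3 in 1x2000g and 1 to 3 and 2 to 8 in sucrose nuclei. It reversed Vdr in bulk warm (-0.0274 to 0.0770), Calb1 (-0.28 to 0.13), S100g (-0.22 to 0.14), Trpv5 (-0.70 to 0.29), Slc8a1 (-0.53 to 0.23) and Vdr (-0.20 to 0.0742) in fresh warm against cold, S100g (-0.32 to 0.62) and Slc8a1 (-0.24 to 1.11) in cold and S100g (-0.34 to 0.00441) and Slc8a1 (-0.19 to 0.82) in warm cryopreserved libraries, Calb1 in 1x2000g (-0.81 to 0.10) and S100g in sucrose nuclei (-0.0668 to 0.44).

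The kidney code in the headers of the C57BL/6J 10x libraries was tried as a replicate block after the data were seen. Same-code libraries of 15 pairs deviated together with correlations of -0.17 to 0.57, 8 of them over 0.1, and 7 correlated best with their own code. In the methanol comparisons all 6 were over 0.1 and 5 were best with their own code, in the cryopreservation comparisons 1 of 6 on either count and in fresh warm against cold 1 of 3. Stored libraries were taken as paired by design, and for fresh warm and cold libraries the code is a number only. The block left the library counts at 0 for fresh cells, 2 for cold cryopreserved, 3 for warm cryopreserved and 2 for cold methanol and for warm methanol. The interactions were refitted with other scaling, without the filter and by DESeq2, and those of storage also with the block, which kept 0 calls over libraries for both and 2 for cryopreservation and 1 for methanol over the distal classes. Removing marked doublets moved 7 of 24 levels by class by over 1 SD between libraries, and thinning to 1000 in place of 500 UMIs moved 21 of 24 shares of barcodes with a UMI. Several libraries of stored and male cells listed Trpv5 or Slc8a1 at 0. Depth and the gene filter of the deposited tables cannot be told apart there.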
